A study of Mus musculus with 14 samples.

Results

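Small nucleolar RNA (snoRNA) genes were examined in regulatory T cells (Tregs), which are CD4+ T cells that express the transcription factor Foxp3 and dampen immunity. Of the 22255 genes in the deposited table, 85 have names that start with Snora or Snord, and the 54 with a value above 0 in at least 3 of the 14 libraries are described here. These are 35 of 53 Snord rows, whose products belong to the box C/D class, and 19 of 32 Snora rows, of the box H/ACA class. The members were chosen by their FPKM (fragments per kilobase of gene, scaled to the depth of the library), in any 3 libraries whatever their group, so that the detection of the 54 genes is a description and not a finding. Of the other rows 21 were listed at 0 in every library and 10 were above 0 in 1 or 2 libraries.

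The cells were Foxp3-YFP+ Tregs from 8-week-old mice, profiled by RNA-seq with the Smart-Seq2 protocol, which suits low amounts of RNA. The KO tumor group holds 3 libraries from tumors of mice labelled CD36floxed FoxP3-YFPCre+/- (replicates 1 to 3). The WT tumor group holds 3 libraries from tumors of FoxP3-YFPCre+/+ mice (replicates 2 to 4). Both tumors were Yumm1.7 melanomas, which grow from a mouse melanoma cell line. The lymph node (LN) and spleen groups hold 4 libraries each from FoxP3-YFPCre+/+ mice. All groups carry the YFP-Cre allele, in which the Foxp3 gene drives the recombinase, and KO and WT tumor labels differ in the number of its copies as well as in Cd36, the gene of a fatty acid receptor. The labels do not tell whether replicates are separate animals, and p-values here reflect the spread among libraries, part of which could be technical.

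snoRNAs are short nuclear RNAs that guide enzymes to their targets, mostly ribosomal RNA. Box C/D snoRNAs pair with the target and direct ribose methylation by fibrillarin, and box H/ACA snoRNAs direct the conversion of uridine to pseudouridine by dyskerin. In mammals most lie in introns of other genes, the host genes, and are cut out of the spliced intron, while a few have promoters of their own. Many hosts encode ribosomal proteins or other parts of the translation machinery, which T cells raise when they grow.

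The sequences of the 8 genes on which the results turn are shown first, because the boxes that place each gene in its class can be read in them. They are GENCODE M21 transcripts on the GRCm38 build, printed as DNA in the sense of the gene. In box C/D genes, capitals mark the C box core TGATG in the first 30 bases and the D box CTGA in the last 25. In box H/ACA genes they mark the last ACA within the last 12 bases. Snora23 lies at chr7:110046364-110046547 (plus strand) in an intron of Ipo7, Snora57 at chr19:8888538-8888685 (minus strand) in no host gene. Snord47 lies at chr1:161038082-161038158 (plus strand) in Gas5 and Snord49b at chr11:62603079-62603150 (plus strand) in 2410006H16Rik, both of them noncoding hosts. Snord32a lies at chr7:45127382-45127464 (minus strand) in Rpl13a. Snord15a and Snord15b lie at chr7:99482785-99482932 and chr7:99479563-99479707 (minus strand) in Rps3. Snord118 lies at chr11:69073427-69073561 (plus strand) in no host gene.
Snora23: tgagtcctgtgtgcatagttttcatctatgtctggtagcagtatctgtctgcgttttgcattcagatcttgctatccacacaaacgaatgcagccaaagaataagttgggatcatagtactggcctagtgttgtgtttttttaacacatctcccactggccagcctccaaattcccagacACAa
Snora57: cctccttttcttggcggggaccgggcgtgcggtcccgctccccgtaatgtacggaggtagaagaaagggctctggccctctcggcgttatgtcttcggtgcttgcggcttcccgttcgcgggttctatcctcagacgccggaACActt
Snord47: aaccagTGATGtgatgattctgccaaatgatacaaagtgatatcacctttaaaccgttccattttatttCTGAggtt
Snord49b: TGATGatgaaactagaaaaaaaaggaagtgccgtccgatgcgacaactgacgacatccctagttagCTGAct
Snord32a: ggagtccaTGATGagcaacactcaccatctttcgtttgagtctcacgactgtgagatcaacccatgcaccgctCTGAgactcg
Snord15a: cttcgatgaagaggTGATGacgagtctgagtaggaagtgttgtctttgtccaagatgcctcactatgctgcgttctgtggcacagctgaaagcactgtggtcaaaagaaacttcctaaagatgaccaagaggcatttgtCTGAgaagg
Snord15b: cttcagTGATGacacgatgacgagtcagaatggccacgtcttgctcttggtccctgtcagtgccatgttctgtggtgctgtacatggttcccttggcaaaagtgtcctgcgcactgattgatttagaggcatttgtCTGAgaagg
Snord118: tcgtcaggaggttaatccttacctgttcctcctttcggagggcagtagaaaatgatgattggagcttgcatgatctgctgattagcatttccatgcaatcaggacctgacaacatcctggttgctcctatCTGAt
The D box was found in 35 of 35 box C/D members and the C box core in 31 of 35, with Snord118 among those that lack it in the window searched. An ACA was found in 19 of 19 box H/ACA members, and the last ACA lay exactly 3 bases from the end in 14 of them. In Snora23, Snora36b and Snora41 the last ACA lay 1 base from the end. An ACA that overlaps it, not marked as such, lay 3 bases from the end in these genes. An H box (ANANNA, at 40 to 65% of the length) was found in 17 of 19, often at several places, and is not in capitals. Of all 1507 M21 transcripts of snoRNA type, 24.3% held both C and D boxes and 38.8% both H and ACA boxes by the same search on the transcript strand. Snord15a and Snord15b share a stretch of 21 bases around the D box (agaggcatttgtCTGAgaagg).

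Box C/D members were 64 to 238 bases long (median 83) and box H/ACA members 127 to 184 bases (median 132). By the annotation 50 of the 54 members lie within a host gene, which is protein-coding for 43 and noncoding for 7, and 21 lie in genes of cytoplasmic ribosomal proteins. The 4 without a host are Snord118, Snord104, Snora57 and Snora17. An exon of an annotated transcript of another gene, mostly a retained intron of the host, overlaps 25 members, and 29 overlap none. Near-identical copies among the annotated M21 snoRNA genes exist for 9 members, among them Snord118, Snora57, Snora30, Snora65, Snora68 and Snora21, whose levels are therefore uncertain. The files hold 1 value per gene, so that reads from a mature snoRNA and from an unspliced or retained intron of its host cannot be told apart. In bulk samples fewer cells of a type and less RNA per cell cannot be told apart either, and FPKM do not measure the amount of snoRNA per cell. How well the protocol captures mature snoRNAs was not tested.

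The estimated depth, in M (mega) reads, was 13.6 to 17.2 M reads in KO tumor, 10.7 to 14.4 M reads in WT tumor, 18.3 to 21.5 M reads in LN and 11.5 to 13.8 M reads in spleen libraries. At these depths 1 read over a member was worth 0.195 to 1.46 FPKM, and 96 of the 496 member values above 0 were 1 or 2 reads. A listed 0 therefore does not show that a gene was silent. The Treg markers were above 0 in every group. Foxp3 stood at 42.4, 41.7 and 25.7 FPKM in KO tumor and 11.96, 3.54 and 11.97 FPKM in WT tumor libraries. Cd36 was listed at 0, 1.06 and 0 FPKM in KO tumor and at 0 in all 3 WT tumor and 4 LN libraries, so it did not check the genotype labels, and the groups are called by their labels. Macrophage markers stood apart: the 10 markers summed to 306 to 415 FPKM in KO tumor, 1.18 to 107 FPKM in WT tumor, 4.04 to 36.1 FPKM in LN and 271 to 711 FPKM in spleen.

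The members covered a wide range of levels, from under 10 FPKM on average in 29 genes over 10 to 100 FPKM in 19 to at least 100 FPKM in 6. The 6 highest were Snord118, Snord47, Snora23, Snord49b, Snord104 and Snora57. Snord118 encodes U8, which in frogs and humans is needed to process the precursor of the large-subunit rRNA. It alone held 68.4% of the FPKM of the box C/D members, with a mean of 2332 FPKM over the libraries. Only 11 members were above 0 in all 14 libraries, namely Snora21, Snora23, Snora57, Snord104, Snord118, Snord17, Snord35a, Snord42b, Snord47, Snord49b and Snord67. Of all 756 values 260 were 0, and in 14 members a single library held most of the sum. The coefficient of variation within groups had a median of 29.3% in members of at least 100 FPKM and of 145% in the others. At the edge of the rule, Snord45b, Snord57, Snord70 and Snord95 were above 0 in exactly 3 libraries, with highest values from 1.39 to 87.3 FPKM. Just outside it 6 genes were above 0 in 2 libraries, with highest values from 2.18 to 13.5 FPKM. Snord49a, which like Snord49b has a name of the U49 pair, was among these 6, at 13.5 FPKM in WT tumor replicate 4 and 5.87 FPKM in LN replicate 1.

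**Figure D1:**
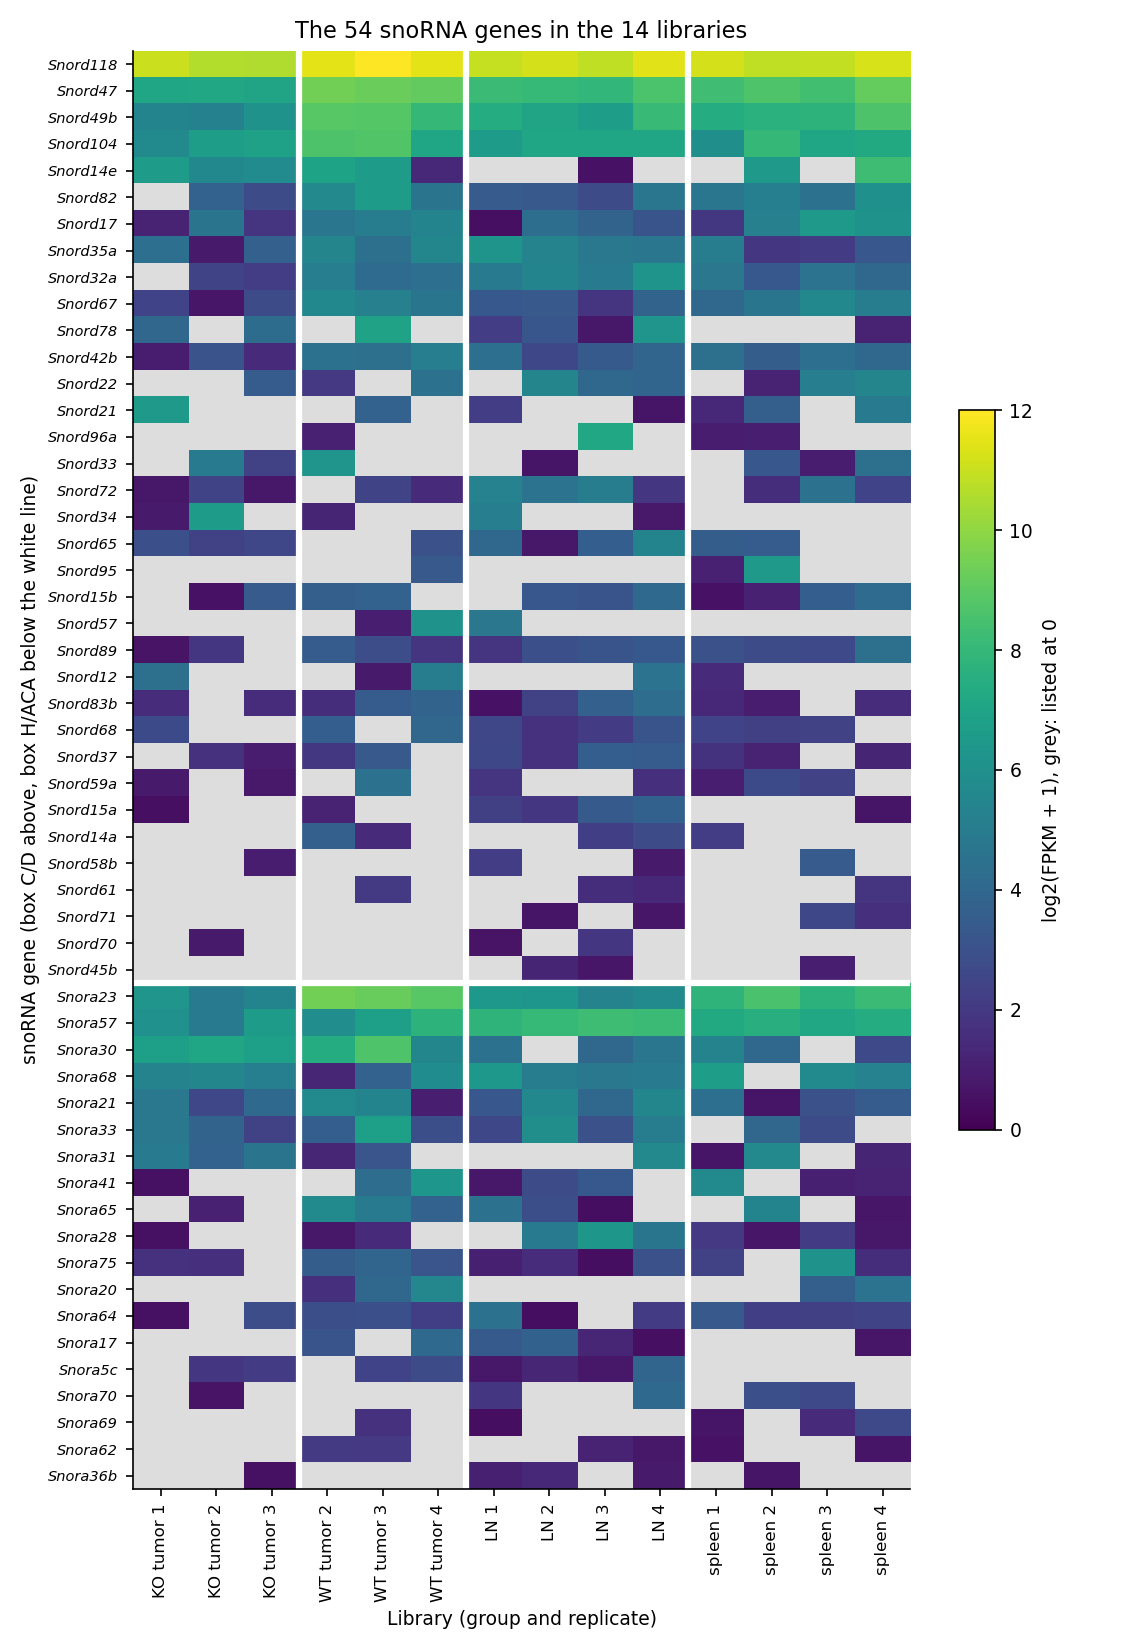
Heat map of log2(FPKM + 1) for the 54 snoRNA genes (rows, box C/D above and box H/ACA below the white line, each by falling mean) in the 14 libraries (columns, by group and replicate), with grey for values listed at 0. The top rows of each class are filled in every library, while 260 of the 756 cells are grey, and 14 genes owe most of their sum to 1 library.

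Members in the same host gene could stand far apart in level. In Gas5, a noncoding gene whose spliced RNA is short-lived and which carries several box C/D snoRNAs, Snord47 averaged 361 FPKM and Snord78 17.2 FPKM. In 2410006H16Rik, Snord49b averaged 215 FPKM and Snord65 8.00 FPKM. In Rpl13a, Snord32a averaged 23.4 FPKM, Snord33 9.94 FPKM, Snord34 9.35 FPKM and Snord35a 25.2 FPKM. By these means those of Rpl13a lay closer together than those of Gas5. Single libraries weighed on the means, as Snord34 had 93.8 FPKM in KO tumor replicate 2 and Snord33 74.3 FPKM in WT tumor replicate 2. The snoRNAs of Rpl13a are known from cultured hamster cells and mice as mediators of the damage done by excess saturated fatty acids. In all, 6 hosts held 14 of the members, and the pair in Rack1, Snord95 and Snord96a, averaged 6.97 and 10.5 FPKM. Each of these means came mostly from a single library. Snord95 had 87.3 FPKM in spleen replicate 2 and 9.18 FPKM as its next value. Snord96a had 143 FPKM in LN replicate 3 and 1.15 FPKM as its next value.

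Tregs of KO tumors had lower FPKM than Tregs of WT tumors for 3 snoRNA genes of high mean, Snora23, Snord47 and Snord49b. This comparison asks, by the design of the series, how loss of Cd36 in Tregs changes their transcripts in the tumor. Snora23, a box H/ACA RNA for rRNA pseudouridylation, had 75.4, 31.3 and 41.8 FPKM in KO tumor replicates 1 to 3 and 692, 584 and 472 FPKM in WT tumor replicates 2 to 4. The groups did not overlap, and the reads behind these values were 78 to 233 in KO tumor and 1251 to 1445 in WT tumor libraries. It fell by 3.61 ± 0.36 on the log2(FPKM + 1) scale (SE, limma adjusted p = 0.00673). Snord47, a guide for methylation of the large-subunit rRNA, had 133, 141 and 127 FPKM in KO tumor and 689, 607 and 559.5 FPKM in WT tumor libraries. The 3 KO tumor values lie close together, far below those of WT tumor, and the gene fell by 2.198 ± 0.215 (limma adjusted p = 0.00673). Snord49b, another guide for the large-subunit rRNA, had 42.2, 37.9 and 70.4 FPKM in KO tumor and 469.8, 454 and 255 FPKM in WT tumor libraries. It too showed no overlap between the groups and fell by 2.95 ± 0.37 (limma adjusted p = 0.0132). The 3 genes passed among 33 members tested, where 23 of 8210 genes (0.28%) passed in either direction and 15 (0.183%) were lower. Without the filter on low values the 3 calls were lost, with limma adjusted p of 0.0827, 0.0827 and 0.176, and no gene at all was called among 15208. Snord49b also lost its call without WT tumor replicate 2 (0.0558), WT tumor replicate 3 (0.0597) or KO tumor replicate 2 (0.0712).

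**Figure D2:**
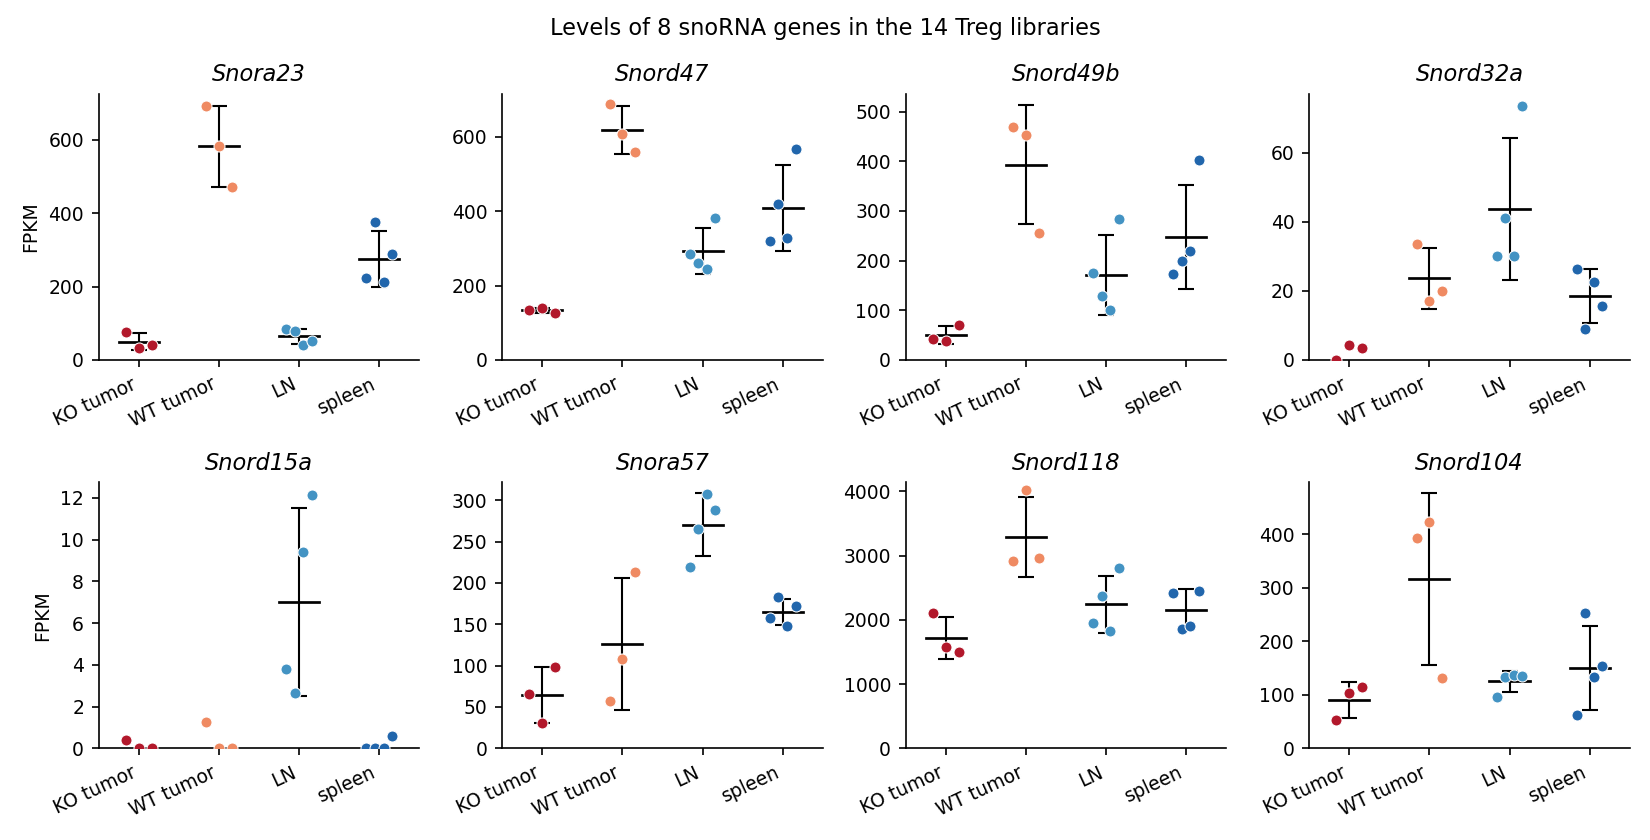
FPKM of 8 snoRNA genes in each library (points), by group in the order KO tumor, WT tumor, LN and spleen, with the mean and SD (bars) where every library of the group is above 0. The KO tumor values of Snora23, Snord47 and Snord49b all lie below the WT tumor values, and Snord15a is highest in the 4 LN libraries.

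The other 30 tested members did not pass, and the listed values are descriptions. Among box C/D genes with a lower estimate in KO tumor, the smallest p-values were those of Snord118 and Snord67. Snord118 had 2099.7, 1575 and 1496 FPKM in KO tumor and 2908, 4015 and 2958 FPKM in WT tumor libraries (-0.93 ± 0.18, limma adjusted p = 0.108). Snord67, which guides methylation of a spliceosomal RNA and not of rRNA, had 4.29, 0.664 and 5.77 FPKM in KO tumor and 47.8, 36.9 and 24.4 FPKM in WT tumor libraries (-3.21 ± 0.71, limma adjusted p = 0.171). Neither gene showed overlap between the groups, and in a fit of all 14 libraries both passed (limma adjusted p = 0.0284 and 0.0337). Among box H/ACA genes, Snora65 had 0, 1.13 and 0 FPKM in KO tumor and 53.0, 29.2 and 12.8 FPKM in WT tumor libraries (-4.46 ± 0.78, limma adjusted p = 0.0717). Snora20 was listed at 0 in all 3 KO tumor libraries, against 2.18, 15.1 and 46.6 FPKM in WT tumor libraries (limma adjusted p = 0.277). Over the libraries of all groups that list it at 0, 3 reads would be 1.09 to 1.91 FPKM. In the other direction, Snora31 had 29.3, 12.5 and 23.7 FPKM in KO tumor and 1.43, 8.01 and 0 FPKM in WT tumor libraries (2.95 ± 0.89, limma adjusted p = 0.333). Snora68, Snord65 and Snord14e also had higher estimates in KO tumor (limma adjusted p = 0.716, 0.715 and 0.885), with overlap between the groups. For Snord14e the groups held 95.3, 48.3 and 54.4 FPKM in KO tumor and 124, 94.2 and 1.54 FPKM in WT tumor libraries, and its sign turned without WT tumor replicate 4 (-0.77).

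Over the 33 tested members the estimate was negative in 26, and the median was -1.55 against 0.07 over all 8210 tested genes. All 3 KO tumor values lay below all 3 WT tumor values in 15 of the 33, where this held for 6.93% of all tested genes, and above them in 1, against 7.54%. By class the median was -1.69 over 21 box C/D and -0.82 over 12 box H/ACA members. These figures are descriptions: the other 21 members did not reach 1 FPKM in 3 of the 6 tumor libraries, and 1 of the 33 reached it in WT tumor alone.

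The shares of both classes were also lowest in KO tumor. Box C/D members made up 0.457, 0.389 and 0.395% of all FPKM in KO tumor, against 0.837, 1.01 and 0.720% in WT tumor libraries. Box H/ACA members made up 0.0665, 0.0522 and 0.0684% in KO tumor, against 0.182, 0.230 and 0.163% in WT tumor libraries. In LN the ranges were 0.525 to 0.784% and 0.0919 to 0.115%, and in spleen 0.546 to 0.758% and 0.0996 to 0.123%. For both classes the 3 KO tumor libraries lay below the other 11, and the WT tumor libraries lay highest for box H/ACA, while WT tumor replicate 4 overlapped LN and spleen for box C/D. Without Snord118 the box C/D share was 0.0864 to 0.0964% in KO tumor, 0.221 to 0.344% in WT tumor, 0.141 to 0.235% in LN and 0.130 to 0.319% in spleen. Without Snora23, its highest member, the mean box H/ACA share was 0.0532% in KO tumor, 0.0933% in WT tumor, 0.0901% in LN and 0.0586% in spleen, so that much of the height of WT tumor lay in 1 gene. Without that gene the KO tumor and spleen libraries overlapped. Other short RNAs also differed between the tumor groups. Genes of small nuclear RNAs made up 0.114 to 0.161% in KO tumor and 0.284 to 0.418% in WT tumor libraries, and mitochondrial tRNA genes 0.215 to 0.252% in KO tumor and 0.669 to 0.705% in WT tumor libraries. Snord and Snora members aside, genes annotated as snoRNA type made up 0.345 to 0.402% in KO tumor, 0.561 to 0.762% in WT tumor, 0.222 to 0.359% in LN and 0.268 to 0.369% in spleen libraries, so that the KO tumor values were not the lowest for this class and overlapped those of LN and spleen. Of these classes, 1 of 47 snRNA genes, 6 of 17 mitochondrial tRNA genes and 0 of 49 other snoRNA-type genes fell in KO tumor (limma adjusted p at most 0.05), and none rose. Without adjustment 18 of those 49 had a p under 0.05, as did 8.64% of all tested genes. All 10 macrophage markers were above 0 in KO tumor and 8 of 10 in WT tumor, with Cd68 and Adgre1 at 0 there. Of 7 macrophage markers tested between the tumor groups 2 were called higher in KO tumor (lowest limma adjusted p = 0.00952, C1qb). All 7 had an unadjusted p under 0.05, and 8 of all 8210 tested genes were called higher. Erythroid markers summed to 63.3 to 16427 FPKM in KO tumor and 225 to 11899 FPKM in WT tumor libraries. The part of the macrophage markers, the erythroid markers and the other short RNAs in the snoRNA differences was not tested.

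**Figure D3:**
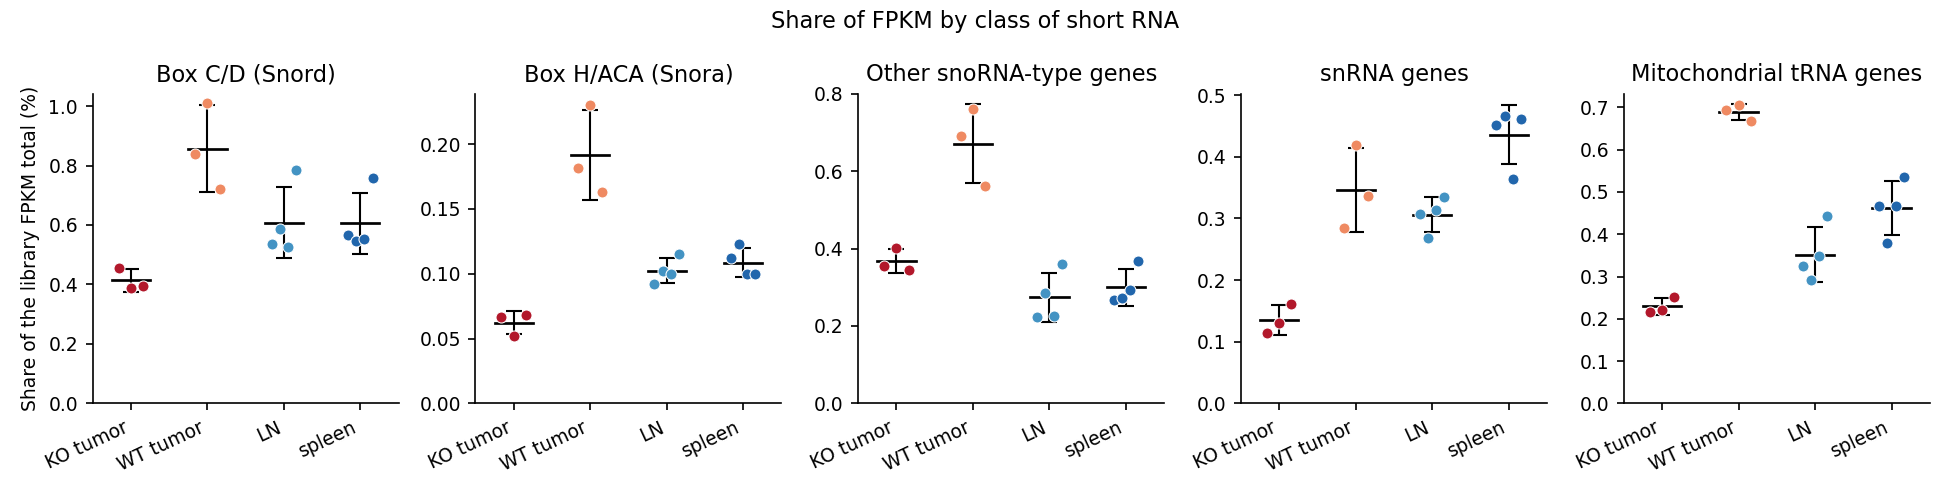
Share of the FPKM total of each library (percent) held by the box C/D members, the box H/ACA members, other genes of snoRNA type, small nuclear RNA (snRNA) genes and mitochondrial tRNA genes, with points for libraries and bars for the mean and SD of each group. The KO tumor shares of the 2 snoRNA classes, of snRNA genes and of mitochondrial tRNA genes lie below those of all other libraries.

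The KO tumor libraries were also set against LN and spleen libraries in a fit of all 14 libraries. This was chosen after the data were seen, and genotype and tissue cannot be told apart in it. These comparisons share the KO tumor libraries with the one above. Against spleen 6 of 49 tested members were called, all lower in KO tumor, where 2.8% of 10147 genes were called and 1.16% were lower. They were Snora23 (-2.51 ± 0.34, limma adjusted p = 0.000638), Snord47 (-1.56 ± 0.22, 0.000785), Snord49b (-2.26 ± 0.38, 0.00300), Snord67 (-2.88 ± 0.62, 0.0168), Snord32a (-2.64 ± 0.61, 0.0258) and Snord42b (-2.29 ± 0.59, 0.0480). Against LN 5 of 49 were called, all lower, where 3.42% of 10147 genes were called and 1.31% were lower. They were Snord32a (-3.84 ± 0.61, limma adjusted p = 0.00162), Snora57 (-2.18 ± 0.40, 0.00496), Snord47 (-1.11 ± 0.22, 0.00826), Snord15a (-2.65 ± 0.55, 0.0114) and Snord49b (-1.70 ± 0.38, 0.0184). Of the 49 members 10 reached 1 FPKM in a spleen library and in no KO tumor library and 2 the reverse, and for LN these numbers were 11 and 2, so that the counts of lower members are descriptions. Snord15a is among the 11, and entered the test through the 4 LN libraries, where it is high. Macrophage marker sums of KO tumor libraries overlapped those of spleen and were above those of LN, against which 4 of 9 tested were called higher. Against spleen 2 of 6 B cell markers and Itgax, a dendritic cell marker, were called lower, and against LN 3 of 11 genes annotated as miscellaneous RNA were called higher. Nkg7, a CD8 T or NK cell marker, was called higher against both. Of 72 snRNA genes tested 10 fell in KO tumor against spleen and 10 against LN. Of 84 other snoRNA-type genes 2 rose and 2 fell against spleen, and 4 rose and 2 fell against LN. Of 17 mitochondrial tRNA genes 1 rose and 3 fell against spleen, and 2 rose and 2 fell against LN. The part of all these in the snoRNA differences was not tested.

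Snord32a, from an intron of Rpl13a, had 0, 4.44 and 3.51 FPKM in KO tumor libraries, which came from 0 to 5 reads. It had 33.7, 17.0 and 20.1 FPKM in WT tumor, 29.96, 41.0, 30.2 and 73.5 FPKM in LN and 26.5, 8.81, 22.7 and 15.7 FPKM in spleen libraries. All KO tumor values thus lay below all other values, as they did for Snord47 and Snord49b. These 3 of the 54 members had such an order. Of the 11 members above 0 in every library 2 had it, and of the 7473 such genes in all 1.58% had it. By group means, KO tumor was the lowest of the 4 groups in 10 of those 11 members, against 25.5% of the 7473 genes, and WT tumor the highest in 8 of 11, against 28.9%. Snord42b, a guide for the small-subunit rRNA, had 0.863, 7.48 and 1.69 FPKM in KO tumor and 20.9, 10.6, 19.95 and 15.1 FPKM in spleen libraries. Its call against spleen was lost without any 1 of the 7 libraries except KO tumor replicate 2 (limma adjusted p 0.0533 to 0.219). The call of Snord32a against spleen was lost without KO tumor replicate 1 (0.134), spleen replicate 1 (0.0695) or spleen replicate 3 (0.0662), and that of Snord67 without KO tumor replicate 2 (0.0969). In a fit of KO tumor and spleen alone these 3 genes lost their calls (limma adjusted p = 0.127 for Snord42b, 0.113 for Snord32a and 0.0530 for Snord67). Without the filter Snord42b (0.0710) and Snord32a (0.0558) lost theirs, as did Snord32a with a pseudocount of 0.1 FPKM (0.0522) and Snord42b with array weights (0.0587) or with small RNA and mitochondrial genes left out of the scaling (0.0523). Against LN, Snord15a lost its call without KO tumor replicate 2 (0.0606) or 3 (0.0544). Snord49b lost its call against LN without KO tumor replicate 1 (0.0879) or 2 (0.0987) or LN replicate 1 (0.0508) or 4 (0.0562), or without the filter (0.0558).

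Snora57, a box H/ACA RNA outside any host, was not among the members that differed between the tumor groups. It had 65.6, 30.9 and 98.4 FPKM in KO tumor, 57.3, 108 and 214 FPKM in WT tumor, 219.7, 265, 308 and 288 FPKM in LN and 158, 183, 147 and 172 FPKM in spleen libraries. The LN libraries were the highest, and both tumor groups overlapped each other (KO against WT tumor -0.90 ± 0.57, limma adjusted p = 0.745). KO tumor against spleen missed the threshold (0.0603) and passed it without KO tumor replicate 3 (0.0405). Snora30 and Snord14e had their lowest values in LN or spleen. Snora30 had 109, 137 and 108 FPKM in KO tumor and 174, 413 and 44.3 FPKM in WT tumor libraries, against 0 to 25.6 FPKM in LN and 0 to 40.8 FPKM in spleen. In no comparison with LN or spleen did Snora30 pass (limma adjusted p 0.110 to 0.146). Snord14e was at 0 in 3 LN libraries and at 1 read in the other, while 2 of 4 spleen libraries held 84.9 and 304 FPKM and the other 2 held none. It did not pass between KO tumor and LN (limma adjusted p = 0.0874), although it did in a fit of those 2 groups alone (0.000217).

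The other comparisons set tissues of wild-type mice against each other. WT tumor Tregs differed from LN Tregs in 3 of 48 tested members. Of all 9616 genes 3.04% were called, 1.89% higher and 1.14% lower. Snora23 rose, at 692, 584 and 472 FPKM in WT tumor libraries against 83.1, 79.2, 40.4 and 52.7 FPKM in LN libraries (3.21 ± 0.30, limma adjusted p = 5.98e-05). This call held in every alternative that was run. Snord47 rose, at 689, 607 and 559.5 FPKM in WT tumor libraries against 286, 260.4, 244 and 381 FPKM in LN libraries (1.09 ± 0.23, limma adjusted p = 0.0179). Snord15a, a guide for the large-subunit rRNA, was the only one called lower. It had 1.26, 0 and 0 FPKM in WT tumor libraries, which are 2 reads in all, and 3.80, 2.67, 9.42 and 12.2 FPKM in LN libraries, which are 83 reads in all (-2.42 ± 0.61, limma adjusted p = 0.0484). It passed the filter of 3 libraries at 1 FPKM only through LN, the group where it is high, so that the call is a description. At so few reads the estimate depends on the pseudocount. With 0.1 FPKM in place of 1 FPKM it was -4.64 (limma adjusted p = 0.0754). Snord15b, its partner in Rps3, had 11.6, 12.8 and 0 FPKM in WT tumor and 0, 8.51, 7.69 and 16.2 FPKM in LN libraries, with full overlap (-0.14 ± 1.21, limma adjusted p = 0.978). Snord47 lost its call without WT tumor replicate 2 (0.0767) or 3 (0.0618) or LN replicate 2 (0.0594) or 3 (0.0593), or without the filter (0.0505). Snord15a lost its own without WT tumor replicate 2 (0.0513), 3 (0.160) or 4 (0.137) or LN replicate 1 (0.0612), 3 (0.107) or 4 (0.106), without the filter (0.0667), with array weights (0.0698) and in a fit of the 2 groups alone (0.0923). Among members that did not pass, Snord67 had 47.8, 36.9 and 24.4 FPKM in WT tumor and 8.88, 9.34, 2.51 and 13.3 FPKM in LN libraries, with no overlap (2.09 ± 0.56, limma adjusted p = 0.0654). Snora57 had no overlap either, at 57.3 to 214 FPKM in WT tumor and 219.7 to 308 FPKM in LN libraries (-1.28 ± 0.35, limma adjusted p = 0.0675), and passed without WT tumor replicate 4 (0.00647). Such lack of overlap was common in this comparison. Of all 9616 tested genes 771 lay wholly higher in WT tumor and 861 wholly lower, and of the 48 members 10 and 2. Snora28 was at 0.734, 1.76 and 0 FPKM in WT tumor libraries and at 0, 29.9, 81.6 and 24.5 FPKM in LN libraries (-3.25 ± 1.17, limma adjusted p = 0.184), and passed without LN replicate 1 (0.00683). The median over the 48 members was 0.46, against -0.12 over all tested genes, where 5 members reached 1 FPKM in a WT tumor library and in no LN library and 1 the reverse. Other short RNAs differed in the same comparison. Of mitochondrial tRNA genes 7 of 17 rose and 1 fell, of genes annotated as miscellaneous RNA 7 of 11 rose, of rRNA genes 2 of 4, of other snoRNA-type genes 8 of 78 and of snRNA genes 3 of 66. Erythroid markers summed to 225 to 11899 FPKM in WT tumor (5 of 7 above 0) and 79.0 to 1192 FPKM in LN libraries (7 of 7), and Hba-a2 was called higher. CD8 T or NK cell markers also differed, with sums of 616 to 1035 FPKM in WT tumor (4 of 5 above 0, Ncr1 at 0) and 164 to 334 FPKM in LN (3 of 5, Klrb1c and Ncr1 at 0). Their part in the snoRNA differences was not tested.

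Between WT tumor and spleen 0 of 48 tested members passed the limma test, where 1.9% of 9616 genes did. With no adjustment 10 of the 48 had p under 0.05, against 14.3% of all tested genes. The closest were Snora23, with 223, 377, 211 and 289.7 FPKM in spleen libraries (1.10 ± 0.30, limma adjusted p = 0.0913), and Snord118 (0.61 ± 0.17, 0.0998). For both genes all WT tumor values lay above all spleen values, which held for 4 of the 48 members and for 551 of all 9616 tested genes. The median over the members was 0.60, against -0.07 over all tested genes, where 5 members reached 1 FPKM in a WT tumor library and in no spleen library and 1 the reverse. Macrophage markers summed to 1.18 to 107 FPKM in WT tumor (8 of 10 above 0, Cd68 and Adgre1 at 0) and 271 to 711 FPKM in spleen libraries (10 of 10), and 4 of 8 tested were called lower. B cell markers summed to 6.36 to 99.6 FPKM in WT tumor and 74.7 to 322 FPKM in spleen libraries, all 7 above 0 in both, and 3 of 6 tested were called lower, as was Itgax, while Nkg7 was called higher. Of mitochondrial tRNA genes 3 of 17 rose and 1 fell, and of miscellaneous RNA genes 2 of 11 rose. Of other snoRNA-type genes 3 of 78 rose and 1 fell, and of snRNA genes 3 of 66 rose and 1 fell. Their part in the snoRNA estimates was not tested. Without spleen replicate 1 a single member was called, Snord35a (2.73, limma adjusted p = 0.0375).

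Between LN and spleen 1 of 48 tested members passed, Snora23, where 0.499% of 9616 genes did and 0.354% were lower. Its LN values of 40.4 to 83.1 FPKM lay below its spleen values of 211 to 377 FPKM (-2.11 ± 0.28, limma adjusted p = 0.00544), and the call held in every alternative that was run. With no adjustment 14 of the 48 members had p under 0.05, against 10.4% of all tested genes. Of the 48 members 5 reached 1 FPKM in an LN library and in no spleen library and 5 the reverse, so that this count is a description. Snora23 thus stood in the order WT tumor, spleen, LN and KO tumor by group means (583, 275, 63.9 and 49.5 FPKM). Of these steps LN against spleen passed, while WT tumor against spleen (limma adjusted p = 0.0913) and KO tumor against LN (-0.40 ± 0.34, 0.708) did not. Snord15a was the nearest box C/D gene, with 2.67 to 12.2 FPKM in LN libraries against 0, 0, 0 and 0.589 FPKM in spleen libraries, the last a single read (2.64 ± 0.56, limma adjusted p = 0.0608), and passed with array weights (0.0489). Snord15a passed the filter only through LN, the group where it is high, so that these values are descriptions. It is thus a gene with 8 to 33 reads in each LN library and 0 to 2 reads in each library of the other 3 groups. Macrophage markers summed to 4.04 to 36.1 FPKM in LN and 271 to 711 FPKM in spleen libraries, with 10 of 10 above 0 in both and 5 of 8 tested called lower, and LN libraries were deeper. B cell markers summed to 49.2 to 68.1 FPKM in LN and 74.7 to 322 FPKM in spleen libraries (3 of 6 tested called lower), and erythroid markers to 79.0 to 1192 FPKM in LN and 2976 to 7086 FPKM in spleen libraries, with all 7 of each above 0 in both. Hba-a2, Itgax, 2 of 17 mitochondrial tRNA genes, 2 of 78 other snoRNA-type genes and 1 of 11 miscellaneous RNA genes were called lower too. The part of any of these in the difference of Snora23 was not tested.

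**Figure D4:**
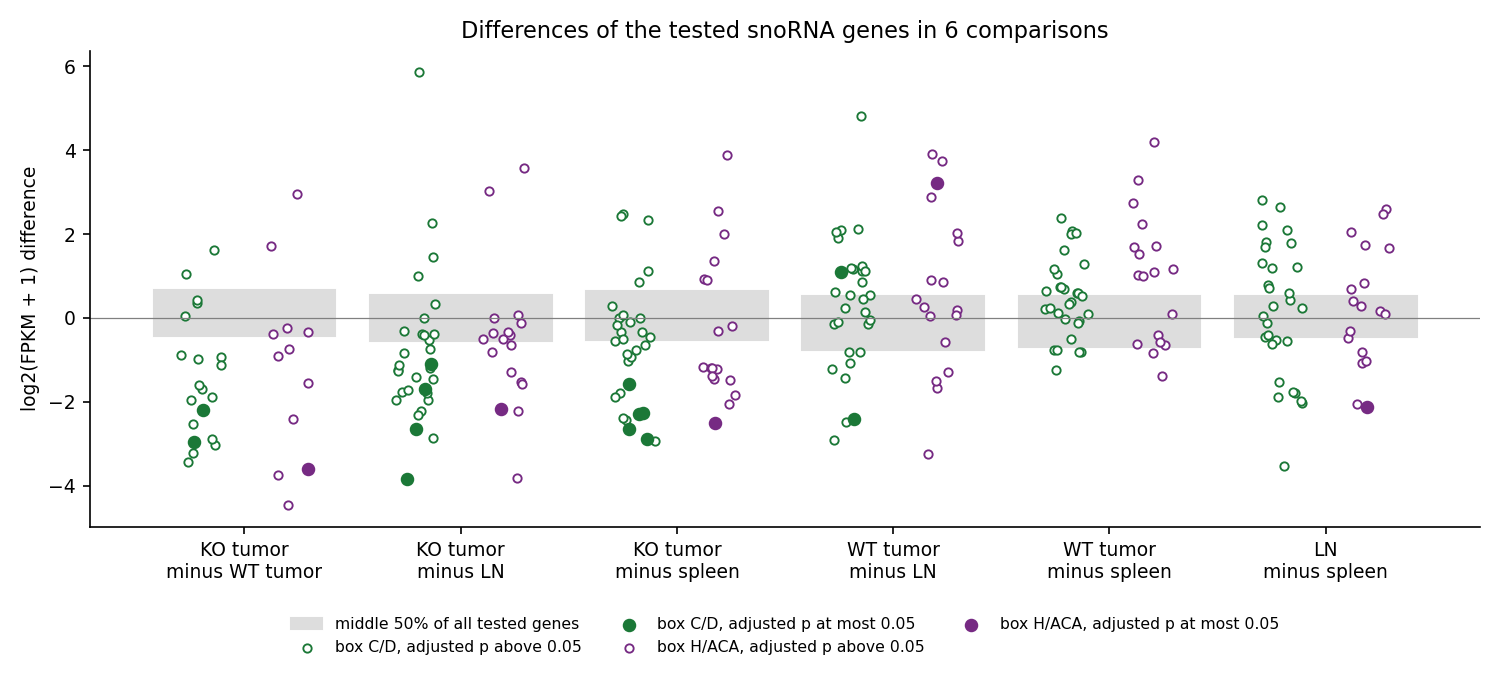
Difference in log2(FPKM + 1) of each tested snoRNA gene in 6 comparisons (first group minus second), with filled points for limma adjusted p at most 0.05, open points for the others and grey boxes for the middle 50% of all tested genes. In the 3 comparisons of KO tumor all filled points lie below 0 (3, 5 and 6 genes), and Snora23 is the filled box H/ACA point in 4 of the 6 comparisons.

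In none of the 6 comparisons were a snoRNA and its host both called. Of 32 hosts 6 were called in KO tumor against spleen and 6 against LN, where 2.8 and 3.42% of all tested genes were. Member and host had the same sign in 24 and 23 of the 39 pairs there. Of 31 hosts 3 were called in WT tumor against spleen and 3 against LN, where 1.9 and 3.04% of all tested genes were. Of 25 member and host pairs tested between KO and WT tumor, in 21 hosts, 2 members were called and no host was by limma (6 of 21 with an unadjusted p under 0.05), and the sign was the same in 11. Ipo7, the host of Snora23 and an importin, had 8.92, 4.77 and 10.8 FPKM in KO tumor and 6.26, 7.76 and 3.16 FPKM in WT tumor libraries (0.45 ± 0.68, limma adjusted p = 0.920). Gas5, the host of Snord47, had 138, 56.8 and 121 FPKM in KO tumor and 73.6, 84.3 and 69.9 FPKM in WT tumor libraries (0.37 ± 0.40, limma adjusted p = 0.866). Snord78, from another Gas5 intron, was listed at 14.4, 0 and 17.6 FPKM in KO tumor and at 0, 119.5 and 0 FPKM in WT tumor libraries. The host of Snord49b is not analysed here. Rpl13a, the host of Snord32a, had 40.9, 57.3 and 40.1 FPKM in KO tumor and 28.1, 20.4 and 39.5 FPKM in WT tumor libraries (0.66 ± 0.45, limma adjusted p = 0.761). Of its other snoRNAs, Snord35a had a lower estimate in KO tumor (-2.17 ± 0.90, limma adjusted p = 0.552). Snord33 had a higher one with a wide error (0.36 ± 1.78, limma adjusted p = 0.978), and Snord34 was not tested between the tumor groups. Snord35a had 19.9, 0.819 and 11.6 FPKM in KO tumor and 43.5, 20.7 and 44.7 FPKM in WT tumor libraries, while Snord33 was above 0 in 7 and Snord34 in 5 of the 14 libraries. Hspa8, a heat shock protein gene and the host of Snord14e, rose in WT tumor against LN (1.02 ± 0.15, limma adjusted p = 0.00190), where Snord14e itself did not pass (4.81 ± 1.86, 0.222). Whether a host and its snoRNA differed from each other was not tested.

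**Figure D5:**
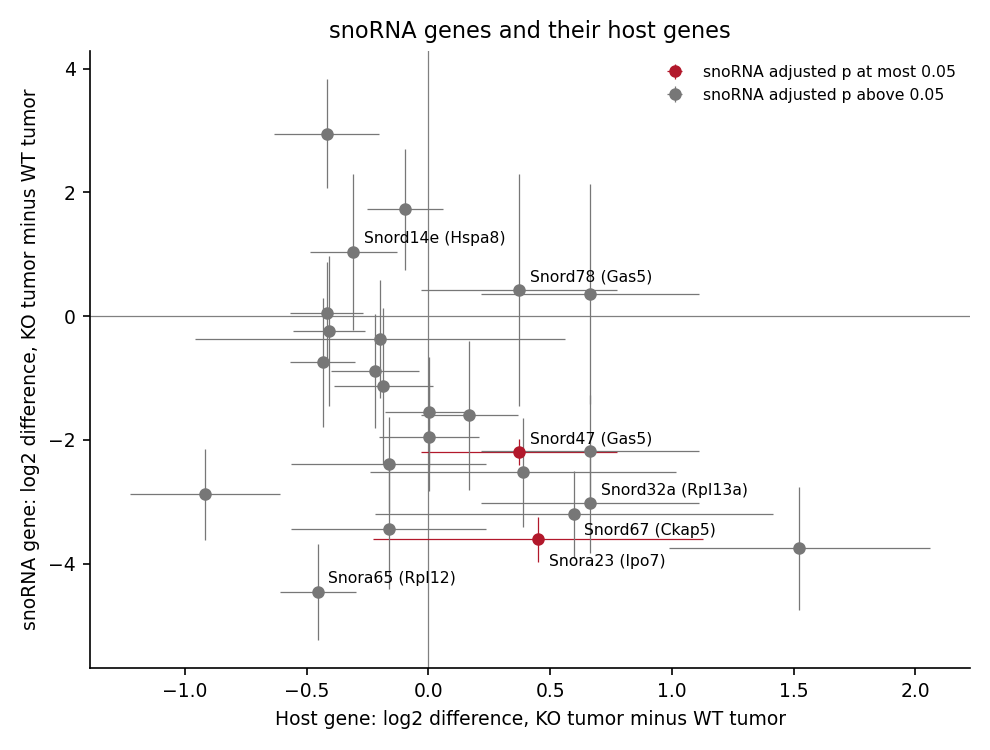
Log2(FPKM + 1) difference between KO and WT tumor of 25 snoRNA genes (vertical axis) against that of their host genes (horizontal axis), with SE as bars and red for snoRNA genes of limma adjusted p at most 0.05. The called genes Snora23 and Snord47 lie far below 0 on the vertical axis while Ipo7 and Gas5 lie at 0.45 and 0.37 on the horizontal one.

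The protein side of the pathway was described from lists. Of the core proteins of box C/D particles 4 of 5 listed were tested, with Fbl (fibrillarin, the methylase), Nop58 and Nhp2l1 among them, and of those of box H/ACA particles 3 of 4, namely Dkc1 (dyskerin, the pseudouridine synthase), Nhp2 and Nop10. None was called by limma in any of the 6 comparisons, and at most 1 protein of each kind had an unadjusted p under 0.05. Between KO and WT tumor the smallest limma adjusted p was 0.546 for Nop58 (1.91 ± 0.78), and Dkc1 stood at 0.03 ± 0.54 (0.997). Nop56 went the other way from Nop58, at 8.93, 5.22 and 12.4 FPKM in KO tumor and 14.4, 23.8 and 17.9 FPKM in WT tumor libraries. The median estimate was -0.47 over the 4 box C/D and -0.48 over the 3 box H/ACA proteins tested, against 0.07 over all tested genes. Nop10 in KO tumor against LN came nearest (-1.05 ± 0.30, limma adjusted p = 0.0748), and passed with array weights (0.0298) and in a fit of those 2 groups alone (0.0365). Of the factors that assemble snoRNA particles 13 to 15 of 18 were tested, and of 39 factors that make or modify rRNA 33 to 38. None of these was called by limma either, with 0 to 3 assembly and 2 to 8 rRNA factors at an unadjusted p under 0.05. The nearest was Taf1d, a subunit of the RNA polymerase I selectivity factor (limma adjusted p = 0.0711, KO tumor against LN), which passed without the filter (0.0430) and with array weights (0.0387). Leaving out 1 library brought in Fbl (0.0376, without spleen replicate 1) and Emg1 (0.00428, without KO tumor replicate 3) in KO tumor against spleen. It also brought in Polr1d (0.0359, without spleen replicate 3) in WT tumor against spleen and Polr1e (0.0364, without LN replicate 4) in WT tumor against LN, where Polr1e also passed with a pseudocount of 0.1 FPKM (0.0233) and in a fit of the 2 groups alone (0.0493). Of 24 other small RNA genes listed, 10 were in the files and 5 to 7 were tested. In WT tumor against LN, 3 of 7 rose: Rny3, a Y RNA (3.71 ± 0.80, limma adjusted p = 0.0203), the vault RNA Vaultrc5 (2.43 ± 0.48, 0.0126) and Rn7sk, which restrains the elongation factor P-TEFb (1.81 ± 0.40, 0.0233). Rnu12, an snRNA of the minor spliceosome, fell in KO tumor against spleen (-2.75 ± 0.38, limma adjusted p = 0.000785) and against LN (-2.14 ± 0.38, 0.00397). Its values were 14.6, 20.02 and 11.2 FPKM in KO tumor, 28.4, 77.4 and 45.5 FPKM in WT tumor, 56.2 to 84.5 FPKM in LN and 71.5 to 151 FPKM in spleen libraries. Between KO and WT tumor 0 of 5 passed and 4 had an unadjusted p under 0.05, with Rny3 nearest at 12.3, 4.34 and 3.997 FPKM in KO tumor against 93.2, 95.6 and 43.5 FPKM in WT tumor libraries (limma adjusted p = 0.0763).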

How the data were processed

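The deposited files give, for each of 14 libraries, the FPKM (fragments per kilobase, scaled to depth) of 22255 genes, which the authors computed with Cufflinks 2.2.1, per the submitters' processing notes. Those notes also name Trimmomatic, TopHat2 2.1.1, Bowtie2 2.2.9 and Cuffdiff on mm10 (GRCm38). The settings, strand use and treatment of multiply mapped reads are not stated there or in the labels.

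FPKM were tested as log2(FPKM + 1) with robust limma-trend (limma 3.58.1, R 4.3.3), not as counts. A gene entered where at least 3 libraries of the fit reached 1 FPKM, with 11 libraries (WT tumor, LN, spleen) or 6 (KO and WT tumor). Benjamini-Hochberg adjustment ran over all tested genes, with a threshold of 0.05. The log scale understates differences of low genes. KO tumor against LN and spleen was added after the data were seen. The members and gene lists were chosen with earlier results of these data known. Text genes were, per comparison, the called members, the 2 of each class and direction with the smallest p of the rest, the 5 highest of each class, their hosts and the core proteins, and the 2 lowest p of each other list. Genes at the edge of the rule, Snord49a and members sharing a host were named after their values were seen, and not every gene that the rule takes is named.

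Depth was estimated from the steps between low FPKM in genes of 1 transcript (at least 800 bases, up to 20 reads), of which 92.3 to 96.0% were whole reads within 0.1. All 251 member values of at most 20 reads were whole. These depths cover counting error only. Host genes, positions and sequences came from GENCODE M21, which matched 22201 IDs and all 54 members. Copies share 95% identity over 90% of the length (blastn 2.17.0). On simulated data (8210 genes) the KO against WT tumor test recovered 2.09, 13.7 and 57.6% of genes changed by log2 1, 2 and 4. Of all its calls there, 4.71% were false. The main tests did not pair samples by replicate number. Deviations of same-numbered libraries correlated at 0.0282 at most, which cannot show whether they come from the same animal. Python 3.11.15, numpy 2.4.6, pandas 2.3.3, scipy 1.17.1 and matplotlib 3.10.9 did the rest.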

Additional observations from a re-analysis of the deposited data

Results flagged for a closer look

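In the groups of 4 libraries, a library was looked at again where its gap to the nearest other value as a share of the range of its group passed Dixon's critical value. This was done for 2 class shares and 14 members in LN and spleen, 32 groups of values in all. If values were normally distributed, chance alone would mark about 1 in 20. It marked 5. The box C/D share of FPKM was 0.758% in spleen replicate 4 and 0.546 to 0.567% in the other spleen libraries. Snora68, a box H/ACA gene, had 82.7 FPKM in LN replicate 1 and 27.3 to 31.7 FPKM in the other LN libraries. Snord104 had 95.2 FPKM in LN replicate 1 and 134 to 137 FPKM in the others. Snord14e had 0.516 FPKM in LN replicate 3 and Snord15a 0.589 FPKM in spleen replicate 4, each a single read beside 0 in the other 3 libraries. A group of this kind is always marked, because its gap equals its range, so the rate of 1 in 20 does not hold for it.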

How the results depend on the processing

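Low values limit the members: 21 of 54 were not tested between the tumor groups, and 96 of 496 values above 0 were 1 or 2 reads. The count of called members was 3 between KO and WT tumor, 0 without the filter, 6 in the fit of all 14 libraries and 2 to 3 with 1 library left out. It was 3 between WT tumor and LN, 1 without the filter and 1 to 4 with 1 library left out, and 0 between WT tumor and spleen, 0 to 1 with 1 library left out. Between LN and spleen it was 1, 2 with array weights and 1 to 2 with 1 library left out. For KO tumor against spleen it was 6, 3 in a fit of the 2 groups only and 4 to 6 with 1 library left out, and for KO tumor against LN 5, and 3 to 5 with 1 library left out. With the replicate number as a block, over the libraries whose number both groups have, the counts were 1 for KO against WT tumor, 3 for KO tumor against spleen, 6 for KO tumor against LN, 2 for WT tumor against LN, 0 for WT tumor against spleen and 1 for LN against spleen. Without a block the same libraries gave 1 for KO against WT tumor, 3 for KO tumor against spleen, 7 for KO tumor against LN and 3 for WT tumor against LN. Of the 6 and 7 for KO tumor against LN, 2 were higher, Snora31 (4.43 in both) and Snord14e (5.80 in both). No same-numbered pair had a correlation of deviations above 0.1 (highest 0.0282), and not every sample correlated best with its own number. The median-ratio scaling, scaling without small RNA and mitochondrial genes, the other pseudocount and the stricter filter of 5 FPKM kept each count within 1.5 times.

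Mean class shares moved by more than 1 SD as follows, and their cause lies in what each alternative leaves out. Box C/D without Snord118 was 0.0914% (KO tumor), 0.300% (WT tumor), 0.176% (LN) and 0.213% (spleen). With only members that overlap no exon it was 0.363% (KO tumor), 0.706% (WT tumor) and 0.492% (spleen), and with mitochondrial genes left out of the total 0.452% (KO tumor). Box H/ACA without its highest member, Snora23, was 0.0532% (KO tumor), 0.0933% (WT tumor), 0.0901% (LN) and 0.0586% (spleen), and with only members that overlap no exon 0.0509% (KO tumor), 0.0776% (LN) and 0.0912% (spleen). By these means KO tumor was the lowest group in each, by 0.0532% against 0.0586% in spleen at the closest, where single libraries of the groups overlapped. With 1 library left out the means were 0.392 to 0.426% (KO tumor), 0.779 to 0.924% (WT tumor), 0.550 to 0.636% (LN) and 0.555 to 0.626% (spleen) for box C/D. For box H/ACA they were 0.0593 to 0.0675%, 0.173 to 0.206%, 0.0981 to 0.106% and 0.104 to 0.112% in the same order.

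Of 1522 repeats over 98 gene results, 1412 kept the direction and the side of the threshold, 62 lost a call, 32 gained it and 16 turned sign, all 16 in genes that were not called. Snord14e (KO against WT tumor) turned to -1.06 with the replicate block and without the block in the same libraries, and with 1 library left out ranged from -0.77 (without WT tumor replicate 4) to 2.04. Nop10 in that comparison turned to 0.14 with the block and without it in the same libraries. Rpl13a turned to -0.048 in KO tumor against spleen with the block, without it in the same libraries and without spleen replicate 4, and reached 0.73 with another library left out. In KO tumor against LN it ranged from -0.18 to 0.13 with 1 library left out, above 0 without LN replicates 1 or 3 or KO tumor replicates 1 or 3. Gas5 in KO tumor against LN turned to 0.023 with the block and without it in the same libraries, and ranged from -0.45 to 0.18 with 1 library left out, above 0 without LN replicate 4 or KO tumor replicate 2. Their cause was not tested.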
